A study of Mus musculus with 6 samples.

Results

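The MEIS, PBX and PKNOX genes listed here are 8 homeobox genes, Meis1, Meis2, Meis3, Pbx2, Pbx3, Pbx4, Pknox1 and Pknox2, that encode DNA-binding partners of HOX proteins. They were taken by symbol from the 36528 gene models of the files, all 8 were found, and all 8 were among the 17121 genes with enough reads to test. Polyadenylated RNA of primary melanocytes from mouse skin was sequenced in 6 libraries, 3 labelled BAP1 KO (knockout of the histone deubiquitinase BAP1) and 3 labelled WT (wild type). The labels name no strain, age, allele, treatment or batch, and nothing in them says whether the 3 libraries of a group came from separate animals or cultures. The spread behind every p-value is thus that of these 6 libraries alone, and it may be technical.

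These proteins share the TALE homeodomain, which carries a short insertion in the loop after its first helix. PBX proteins bind DNA together with HOX proteins and raise the site selectivity of the pair. MEIS and PKNOX proteins (PKNOX1 is also called PREP1) bind the amino-terminal part of PBX, help to keep it in the nucleus and join the complex on DNA, and they compete with each other for PBX. MEIS proteins can also pair directly with HOX proteins of the posterior paralog groups. Melanocytes descend from the neural crest, whose patterning along the body uses HOX proteins and these partners.

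In the BAP1 KO-labelled libraries, 3 of the 8 genes were higher and 4 lower, and neither the MEIS nor the PBX genes moved as a block. Pknox1, Meis2 and Pbx2 were higher, Meis1, Meis3, Pbx3 and Pbx4 were lower, and Pknox2 did not pass the test. The calls are at an edgeR Benjamini-Hochberg adjusted p under 0.05 over all 17121 genes, a rule that called 81.5% of all genes tested, 39.4% as higher and 42.1% as lower, so 7 of 8 is close to the background. For these 7 genes no CPM value of one group lay within the range of the other, which also held for 82.7% of all tested genes. Meis1 alone differed by more than 2-fold, whereas 36.6% of all tested genes were called with more than a 2-fold difference. The median of the 8 log2 differences was -0.21, beside -0.03 over all genes tested, and the median size without sign was 0.41, beside 0.68 over all genes tested.

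The libraries held 33987690 to 43773769 reads in genes. Bap1, the targeted gene, had more reads with the knockout label than without it. Its level was 72.5 to 77.3 CPM (counts scaled to library size) in BAP1 KO-labelled libraries against 55.6 to 55.8 CPM in WT-labelled ones. The counts pool all exons, so this does not test a deletion of some of them, and each direction below rests on the labels. Of 10 melanocyte markers all 10 were read in both groups, and all 10 were called higher, with a median log2 difference of 3.06. Their summed level was 63319 to 64142 CPM in BAP1 KO-labelled libraries and 6595 to 6690 CPM in WT-labelled ones. The 12 keratinocyte markers summed to 437 to 466 CPM against 9154 to 9241 CPM, with all 12 lower, and the 12 fibroblast markers to 72.8 to 77.8 CPM against 1016 to 1044 CPM, with 11 lower and 1 higher. Among the other marker lists, 4 of 8 for Schwann cells were higher and 3 lower, and 5 of 8 immune markers were higher and 3 lower. Of 8 endothelial and mural markers 6 were tested, with 1 higher and 5 lower. The sums of these lists were, in that order, 2410 to 2463 against 1111 to 1226 CPM, 221 to 229.9 against 58.5 to 63.9 CPM, and 14.6 to 16.0 against 27.8 to 28.8 CPM. No marker was at 0 in every library. The part of these cell type differences in the results below was not tested, and in bulk RNA fewer cells of a type and less RNA per cell cannot be told apart.

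RefSeq promoter windows on GRCm38.p6, running from 250 bases before to 50 after an annotated start, were matched for 5 of the 8 genes. These were Meis1, Meis2, Meis3, Pbx2 and Pbx4. Only for Pbx2 is that start the outer end of the gene span given below. For Meis1, Meis2, Meis3 and Pbx4 it lies inside the span. Bases in no annotated exon numbered 80 in the Meis2 window, 90 in Meis3, 117 in Pbx4, 234 in Meis1 and 254 in Pbx2. Each window held more CG dinucleotides than the median window of 7, from 13 in Meis2 to 29 in Pbx2. Of all windows, 62.1% held fewer than the Meis2 window and 87.1% fewer than the Pbx2 window, with the other 3 in between. The stretch before the start of Pbx2, the most abundant of the 8 genes, is shown at chr17:34592009-34592258 on the plus strand, with its 27 CG dinucleotides in capitals. None of its bases lies in an exon of GENCODE M21. Below it are 30 bases from the Meis1 window, the gene with the largest difference, at chr11:19019133-19019162 on the minus strand, with CATGTG in capitals, the core of the M-box that MITF binds.
Pbx2: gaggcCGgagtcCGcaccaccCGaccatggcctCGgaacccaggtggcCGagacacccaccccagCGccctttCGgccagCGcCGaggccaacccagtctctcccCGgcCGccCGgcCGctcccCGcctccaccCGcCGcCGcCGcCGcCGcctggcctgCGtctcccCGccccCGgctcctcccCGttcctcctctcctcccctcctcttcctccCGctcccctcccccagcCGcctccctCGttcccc
Meis1: tgtatttgtgtgCATGTGccctgggtgtgt
On either strand, CATGTG was in 1 of the 5 windows and in 14.2% of 32851 windows of the same length. The core read by MEIS and PKNOX proteins, TGACAG, was in 0 of 5 and in 19.2% of all windows, and the composite site of PBX with HOX, TGATTNAT, in 0 of 5 and in 3.2%. The MITF E-box CACGTG was in 0 of 5 and in 7.2%, and the CCAAT box in 3 of 5, Meis1, Meis2 and Pbx4, and in 37.4%. These motifs do not overlap one another in the member windows. The matches are descriptions of letters in these windows.

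The MEIS genes went both ways. Levels are given as the authors' normalized RPKM (reads scaled to gene length and library size, adjusted by a factor per library), which allows genes to be compared, and differences are log2 fold changes from the counts with their standard errors, BAP1 KO minus WT label. Meis1, best known as a regulator of blood stem cells and a cofactor of HOXA9 in leukaemia (gene ID 17268, GRCm38 chromosome 11, 18880428 to 19019651), stood at 0.639, 0.508 and 0.631 RPKM in BAP1 KO-labelled libraries and at 1.34, 1.40 and 1.37 RPKM in WT-labelled ones. Every BAP1 KO-labelled library was below every WT-labelled one, and the groups did not overlap. The gene was lower by a log2 difference of -1.24 (SE 0.10, edgeR adjusted p = 7.69e-07), a 2.37-fold difference. It was read thinly, with 114 to 124 reads in each BAP1 KO-labelled library and 248 to 299 in each WT-labelled one. By annotation, 18.3% of its exon bases also lie in exons of the transcripts Gm37818 and Gm16140, and since the library kit does not mark strand, reads there cannot be told apart.

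Meis3, a paralog known from hindbrain patterning (gene ID 17537, chromosome 7, 16174012 to 16186510), was the most abundant MEIS gene in both groups. It stood at 6.47, 6.40 and 6.37 RPKM in BAP1 KO-labelled libraries and at 11.9, 11.8 and 12.9 RPKM in WT-labelled ones. The groups lay far apart against a spread of 0.0518 RPKM (SD, n = 3) in BAP1 KO-labelled libraries and 0.622 RPKM in WT-labelled ones. The log2 difference was -0.96 (SE 0.053, edgeR adjusted p = 2.62e-08), or 1.94-fold lower. Its exons overlap no other annotated gene.

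Meis2, which cranial neural crest requires for its normal development (gene ID 17536, chromosome 2, 115861264 to 116067537), moved against its paralogs. It stood at 2.97, 2.81 and 2.95 RPKM in BAP1 KO-labelled libraries and at 2.13, 2.27 and 2.14 RPKM in WT-labelled ones. All 3 BAP1 KO-labelled libraries were above all 3 WT-labelled ones, by a log2 difference of 0.38 (SE 0.061, edgeR adjusted p = 1.48e-04). Meis2 exceeded Meis1 by 4.64, 5.54 and 4.67 times in BAP1 KO-labelled libraries and by 1.60, 1.62 and 1.56 times in WT-labelled ones. This within-library ratio was 3.10-fold higher in BAP1 KO-labelled libraries (exact permutation test over libraries, two-sided, p = 0.1, the smallest that 3 against 3 allows). The ratio of Meis3 to Meis2 was 2.21 ± 0.0603 in BAP1 KO-labelled libraries and 5.61 ± 0.43 in WT-labelled ones (SD, n = 3 each, exact permutation p = 0.1).

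**Figure D1:**
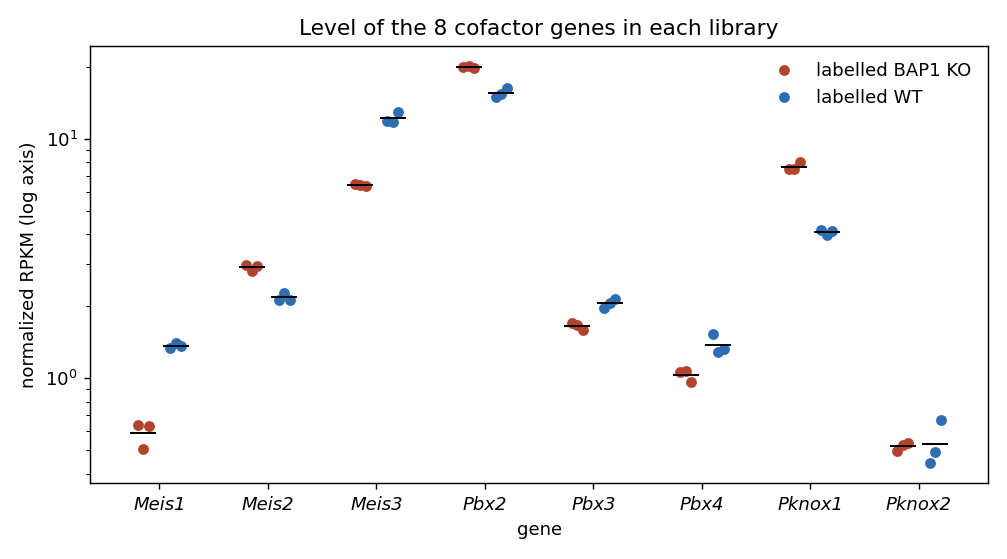
Level of each of the 8 genes in each library, in the authors' normalized RPKM on a log axis, with 1 point per library and a black line at the mean of 3. Meis1, Meis3, Pbx3 and Pbx4 lie lower and Meis2, Pbx2 and Pknox1 higher in BAP1 KO-labelled libraries with no overlap, and the Pknox2 points overlap.

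Among the PBX genes the abundant one was higher and the scarcer ones lower. Pbx2, a broadly expressed member (gene ID 18515, chromosome 17, 34592259 to 34597400), had the highest level of the 8 genes in every library. It stood at 20.0, 20.3 and 19.8 RPKM in BAP1 KO-labelled libraries and at 15.1, 15.4 and 16.4 RPKM in WT-labelled ones. The groups did not overlap, and the log2 difference was 0.33 (SE 0.045, edgeR adjusted p = 4.96e-05), or 1.25-fold. Of its exon bases, 6.24% also lie in exons of the neighbouring gene Gpsm3 on the same strand. Gpsm3, an outside gene named for this overlap after its values were seen, stood at 46.9 to 50.6 CPM in BAP1 KO-labelled libraries and 7.68 to 8.51 CPM in WT-labelled ones, the same direction as Pbx2, and the part of shared reads in the Pbx2 difference was not tested.

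Pbx3, which acts with HOXA9 and MEIS1 in leukaemia (gene ID 18516, chromosome 2, 34171457 to 34372045), stood at 1.71, 1.67 and 1.60 RPKM in BAP1 KO-labelled libraries and at 1.97, 2.07 and 2.14 RPKM in WT-labelled ones. The groups did not overlap, and the log2 difference was -0.34 (SE 0.076, edgeR adjusted p = 1.65e-03). Pbx4, known mainly from the testis (gene ID 80720, chromosome 8, 69832476 to 69872292), stood at 1.07, 1.08 and 0.963 RPKM against 1.54, 1.28 and 1.32 RPKM. It had only 58 to 92 reads in a library. Its log2 difference of -0.44 (SE 0.13, edgeR adjusted p = 9.28e-03) did not pass the threshold without WT replicate 1 (-0.34, adjusted p = 0.0571) or with DESeq2 (-0.43, adjusted p = 0.0629), and over the alternatives that tested it its adjusted p ran from 4.35e-03 to 0.0629. Pbx2 exceeded Pbx3 by 11.7 to 12.4 times in BAP1 KO-labelled and by 7.46 to 7.68 times in WT-labelled libraries (exact permutation p = 0.1).

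Of the PKNOX genes, one was higher and the other did not pass the test. Pknox1, which is needed in early embryos and blood formation and is broadly expressed (gene ID 18771, chromosome 17, 31564722 to 31607693), stood at 7.52, 7.48 and 8.02 RPKM in BAP1 KO-labelled libraries and at 4.16, 3.97 and 4.12 RPKM in WT-labelled ones. It had the largest rise of the 8 genes, a log2 difference of 0.88 (SE 0.051, edgeR adjusted p = 4.04e-08), or 1.84-fold, and the groups did not overlap. Pknox2, its more narrowly expressed paralog (gene ID 208076, chromosome 9, 36890979 to 37147342), stood at 0.496, 0.526 and 0.536 RPKM in BAP1 KO-labelled libraries and at 0.441, 0.493 and 0.667 RPKM in WT-labelled ones. The groups overlapped, and the log2 difference of -0.08 (SE 0.16, edgeR adjusted p = 0.654) turned to 0.14 without WT replicate 3. At 68 to 121 reads per library a small difference in Pknox2 was not detectable.

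The order of the 8 levels differed between the labels in the places of Meis3 and Pknox1. In BAP1 KO-labelled libraries it ran Pbx2, Pknox1, Meis3, Meis2, Pbx3, Pbx4, Meis1 and Pknox2, and in WT-labelled ones Pbx2, Meis3, Pknox1, Meis2, Pbx3, Pbx4, Meis1 and Pknox2. Meis3 was 0.837 ± 0.0372 times Pknox1 in BAP1 KO-labelled libraries and 2.99 ± 0.141 times Pknox1 in WT-labelled ones (SD, n = 3 each, exact permutation p = 0.1). The library ranges of neighbours in this order overlapped for Meis1 and Pknox2 in BAP1 KO-labelled libraries, and for Meis2 and Pbx3 and for Pbx4 and Meis1 in WT-labelled libraries. Those neighbours were not separated by their spread. In all, 7 ratios of one of the 8 genes to another were compared between the labels.

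Added together per length, the 8 genes overlapped in level between the labels, and their make-up differed. The summed level was 40.9, 40.7 and 40.8 RPKM in BAP1 KO-labelled libraries and 38.5, 38.8 and 41.1 RPKM in WT-labelled ones, with overlapping groups (1.04-fold or 0.050 on the log2 scale, exact permutation p = 0.4). Summed as CPM without division by length, the log2 difference was 0.12 and the groups did not overlap (exact permutation p = 0.1). The MEIS genes made up 24.6%, 23.9% and 24.4% of that sum in BAP1 KO-labelled libraries and 39.9%, 40.0% and 40.0% in WT-labelled ones. The PBX genes made up 55.6 ± 0.892% against 48.4 ± 0.165%, and the PKNOX genes 20.1 ± 0.768% against 11.7 ± 0.215% (SD, n = 3 each). Without division by length the PBX share differed by 3.32 percentage points in place of 7.28.

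The shares of 3 genes differed by the most percentage points. Meis3 held 15.7 ± 0.111% of the sum in BAP1 KO-labelled libraries and 30.9 ± 0.487% in WT-labelled ones. Pbx2 held 49.1 ± 0.654% against 39.6 ± 0.476%, and Pknox1 18.8 ± 0.732% against 10.4 ± 0.399% (SD, n = 3 each). For 7 of the 8 genes the shares did not overlap between the labels (exact permutation p = 0.1 each). With Benjamini-Hochberg adjustment of this permutation test over the 8 shares, each of these 7 had an adjusted p of 0.114. Pknox2 was the exception, at 1.27 ± 0.0523% against 1.35 ± 0.248% (exact permutation p = 0.9). The shares of a library add up to a fixed total, so these are not 8 independent results. In CPM levels, the groups did not overlap for 82.7% of all tested genes, so 7 of 8 is close to that background. Without division by length the share of Pbx2 differed by 5.49 in place of 9.41 percentage points, that of Meis1 by -3.34 in place of -2.02, that of Pbx4 by -0.573 in place of -0.969 and that of Pknox2 by -0.210 in place of -0.0746. As sums, the MEIS genes were 1.59-fold lower, the PBX genes 1.19-fold higher and the PKNOX genes 1.77-fold higher in BAP1 KO-labelled libraries (exact permutation p = 0.1 each, the smallest possible).

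**Figure D2:**
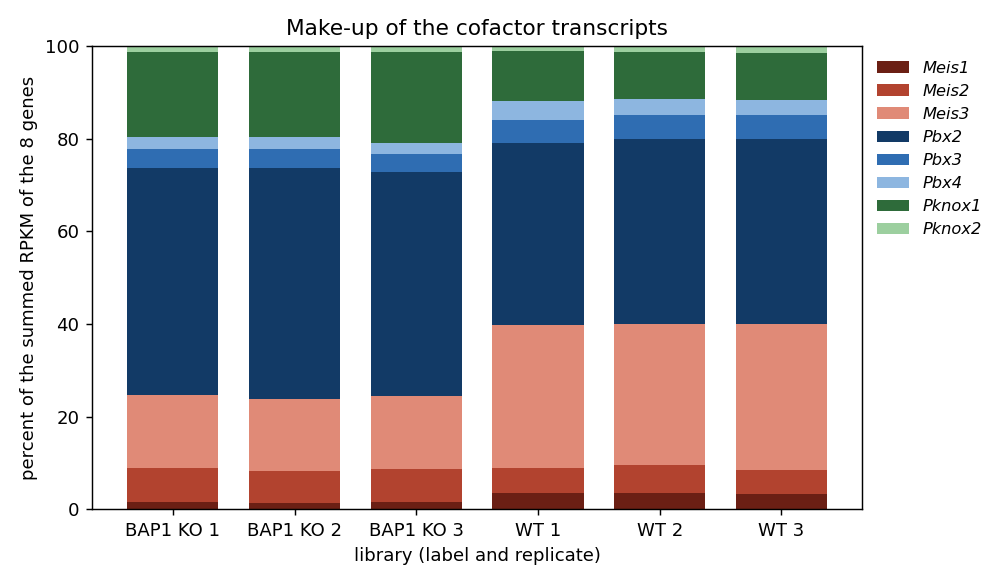
Percent of the summed normalized RPKM of the 8 genes that each gene contributed, with 1 bar per library and each bar adding to 100. The red MEIS segments fill about 24% of the bars labelled BAP1 KO and 40% of those labelled WT, while the dark green Pknox1 segment fills 18.8% and 10.4% on average.

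The HOX genes, whose proteins these cofactors join on DNA, were read alongside. Of 23 HOX genes of paralog groups 1 to 8, whose proteins pair with PBX, 20 were tested and all 20 were lower (median -4.07). Of 16 genes of groups 9 to 13, which include those that pair with MEIS directly, 6 were tested and all 6 were lower (median -2.80). The background rate of lower calls was 42.1%. Hoxa4, Hoxd4, Hoxc5, Hoxa6, Hoxa9, Hoxc9, Hoxa10, Hoxc10 and Hoxc13 had fewer than 10 reads in every BAP1 KO-labelled library. They passed the read filter only through the WT-labelled libraries, so for them a lower call was close to fixed by the filter. The counts of lower HOX genes are thus a description and not a test against the background. The 13 untested HOX genes had at most 17 reads in any library. The lower calls numbered 12 and 1 under a stricter filter of 5 CPM in 3 libraries, and without a filter the second set had 10. Keratinocyte and fibroblast marker sums were also lower in BAP1 KO-labelled libraries, and their part in the HOX differences was not tested.

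The leading HOX genes of the first set were Hoxa6, Hoxa5, Hoxa7 and Hoxa4, with 7, 58, 50 and 15 reads summed over the BAP1 KO-labelled libraries and 347, 2726, 1985 and 412 reads over the WT-labelled ones. Exons of Hoxa7 and Hoxa4 overlap other transcripts over 20.4% and 16% of their bases. Those of the second set were Hoxa9, Hoxc9, Hoxb9 and Hoxc13. Hoxa9, the usual leukaemia partner of Meis1 and Pbx3, stood at 0.0617 ± 0.018 RPKM in BAP1 KO-labelled libraries and 1.33 ± 0.122 RPKM in WT-labelled ones (SD, n = 3 each). Hoxb9 was the most abundant of these 4, at 3.11 ± 0.081 against 23.2 ± 0.486 RPKM. Hoxc9 differed by -3.50 (SE 0.31) and Hoxc13 by -2.66 (SE 0.33) on the log2 scale (edgeR adjusted p = 1.49e-06 and 1.98e-05).

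The balance of HOX to cofactor transcripts was taken from the summed levels. The 39 HOX genes summed to 10.1, 10.4 and 10.7 RPKM in BAP1 KO-labelled libraries and to 120.7, 120.2 and 127 RPKM in WT-labelled ones. Divided by the sum of the 8 cofactors, this gave 0.248, 0.255 and 0.263 in BAP1 KO-labelled libraries and 3.13, 3.10 and 3.10 in WT-labelled ones. The ratio was 12.2-fold lower in BAP1 KO-labelled libraries, with no overlap (exact permutation p = 0.1, the smallest possible). The cofactor sum exceeded the HOX sum in each BAP1 KO-labelled library, and the HOX sum exceeded the cofactor sum in each WT-labelled one. Several HOX gene models overlap one another or antisense transcripts, and reads there cannot be told apart.

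**Figure D3:**
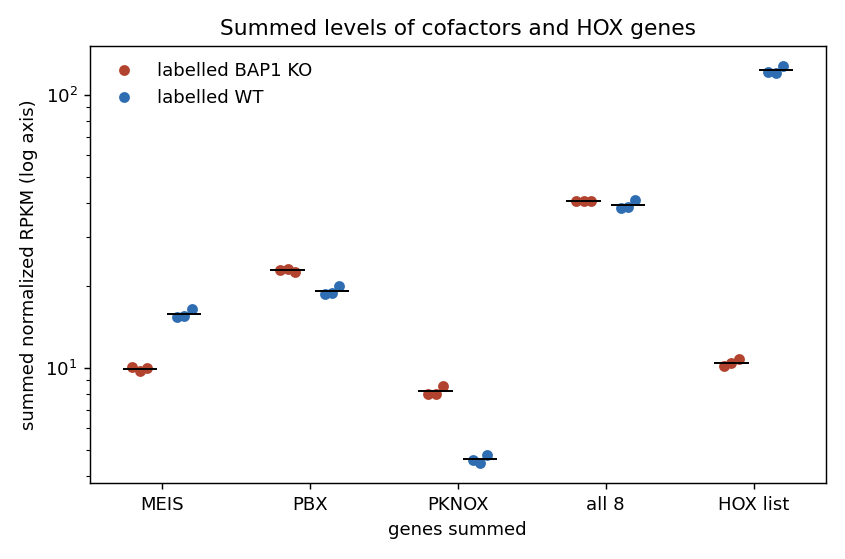
Summed normalized RPKM of the MEIS, PBX and PKNOX genes, of all 8 together and of the 39 HOX genes, on a log axis, with 1 point per library and a line at the mean of 3. The points for all 8 overlap near 40 RPKM, whereas the HOX sums lie between 10.1 and 10.7 RPKM in BAP1 KO-labelled libraries and between 120.2 and 127 RPKM in WT-labelled ones.

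The other TALE homeobox genes, from outside the MEIS, PBX and PKNOX subfamilies, had a median difference without sign of 2.90, beside 0.41 for the 8 cofactors. Of 9 listed, 7 were tested, of which 3 were higher and 4 lower, and 6 of the 7 were called with more than a 2-fold difference. Over all genes tested 39.4% were called higher and 42.1% lower, and 36.6% were called with more than a 2-fold difference. Irx1 and Irx2, patterning factors of the Iroquois group, differed by -3.82 (SE 0.12) and -3.32 (SE 0.072). Tgif1, a repressor of TGF-beta and retinoid responses, fell from 192 ± 1.46 to 24.7 ± 0.995 CPM (SD, n = 3 each), and Mkx, a tendon factor, from 10.7 ± 0.163 to 1.42 ± 0.154 CPM (edgeR adjusted p = 8.37e-13 and 3.91e-10). The 3 higher genes, named after their values were seen, were Irx3 (3.43-fold), Tgif2 (2.30-fold) and Irx5 (1.43-fold). Tgif2 is uncertain because 61.6% of its exon bases overlap other transcripts.

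Genes for proteins that bind or are recruited by these complexes were read as a further list. Of 12 tested, 7 were higher, 4 lower and 1, Hdac1, was not called, with a median of 0.45. Since 81.5% of all tested genes were called, the number called here is close to the background. Pbxip1, which binds PBX proteins and keeps them off DNA, stood at 567, 577 and 526 CPM in BAP1 KO-labelled libraries and at 177, 169 and 178 CPM in WT-labelled ones, a log2 difference of 1.68 (SE 0.044, edgeR adjusted p = 5.14e-11). Crtc3, a coactivator of the cAMP response, was higher by 1.95 (SE 0.047). The corepressor gene Ncor1 was higher by 1.05 (SE 0.034) and the acetyltransferase gene Crebbp by 0.91 (SE 0.046). Among the 4 lower genes, and named after their values were seen, were Mybbp1a (-0.88), whose protein binds PKNOX1, Hdac2 (-0.44) and Hdac3 (-0.15). Summed melanocyte markers were higher in the BAP1 KO-labelled libraries, and the part of this in the coregulator differences was not tested.

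**Figure D4:**
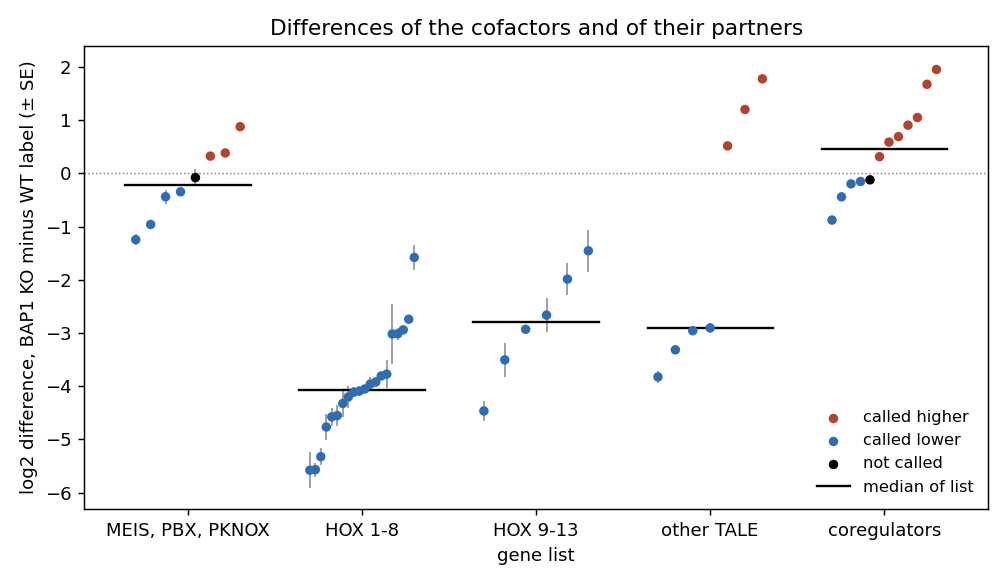
Log2 difference (BAP1 KO minus WT label) with its standard error for every tested gene of 5 lists, coloured by the edgeR call, with a line at each list's median. The 8 cofactors lie between -1.24 and 0.88, all 26 tested HOX genes lie below -1.4, and the other TALE genes and the coregulators lie on both sides of 0.

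The genes whose course over the 6 libraries was most like that of Meis1, by Euclidean distance of centred log2(CPM + 1), were Gria3 (0.0851), Mfsd9 (0.0929), Bmp8b (0.118), Nr6a1 (0.125) and Metap1d (0.125). All 5 were lower in the BAP1 KO-labelled libraries, from -1.02 for Gria3 to -3.54 for Bmp8b on the log2 scale. That direction follows from how they were picked, since Meis1 itself was lower there. Bmp8b, at 0.109 and 1.24 CPM on average, was barely read.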

How the data were processed

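PolyA RNA of 6 libraries was prepared from 0.5 µg of total RNA with a TruSeq v2 kit, which does not mark strand, and sequenced as single reads of 50 bases, per the labels' protocols. GSNAP and GRCm38 are named in the submitters' processing notes; for the aligner's version, the counting tool and the gene annotation the sources used here give nothing. Per the file headers, the deposited values are a count of uniquely aligned reads per gene model and a size-factor-adjusted RPKM. Gene IDs were named from the RefSeq table of GRCm38.p6 (31049 of 36528) or GENCODE M21 (77).

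Counts were filtered with filterByExpr (minimum count 10, minimum total 15), scaled with TMM factors of 0.975 to 1.03, and compared by the quasi-likelihood test of edgeR 4.0.16 (R 4.3.3, glmQLFit and glmQLFTest, no covariate). A check on simulated data came first, but it changed far fewer genes than were called here. It therefore cannot show how the test behaves when most genes differ. The standard error is the log2 difference over the square root of F. Sums, shares and ratios used the deposited RPKM with exact two-sided permutation tests over libraries. Exon overlap was computed from GENCODE M21 on either strand. Replicate numbers were assigned in order of deposit and pair no libraries. No 2 replicates agreed within sampling noise (chi-square over its degrees of freedom was 2.03 to 17.9). Named were the 8 members, Bap1, up to 4 called genes per list by size and the 5 genes nearest to the member with the largest difference. The members and lists were chosen with earlier results of these data known. Alternatives included DESeq2 1.42.0 and limma-voom (limma 3.58.1). In the coregulator list 1 gene is counted, but its own values are not reported here.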

Additional observations from a re-analysis of the deposited data

How the results depend on the processing

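Of 711 recomputed values, 704 were kept. For single genes this means the same direction and side of the threshold, and for counts the same value or one within 1.5 times. For sums, shares and ratios it means the same direction only, whatever the size or p-value. The settings were scaling by DESeq2 size factors, by library totals or by the authors' library factors, no filter on low counts, at least 5 CPM in 3 libraries, DESeq2, limma-voom, an adjusted p under 0.01, RPKM with TMM library sizes, CPM not divided by length, and leaving out each library. Some of these values could not change. Shares and within-library ratios cancel the library size, so RPKM with TMM library sizes returned the same differences. Differences in the ratio of one gene to another also cancel gene length. The setting of an adjusted p under 0.01 reused the main fit, so only its calls could change. The 704 kept values thus overstate how far the results were put to a test. The members called higher stayed at 3 in all 14 alternatives, and those called lower at 3 or 4. The call of Pbx4 was lost with DESeq2 and without WT replicate 1, and Pbx4 and Pknox2 were not tested at 5 CPM. With single libraries left out, Pknox2 ran from -0.17 to 0.14 and its share from -0.176 to 0.0636 percentage points, positive only without WT replicate 3. With the 5 CPM filter, 12 HOX genes of groups 1 to 8 and 1 of groups 9 to 13 were called lower, since fewer were tested, and without a filter 10 of groups 9 to 13 were. Without division by length the summed MEIS difference was -0.47 in place of -0.67 (log2), that of all 8 genes 0.12 in place of 0.050, and the PBX share difference 3.32 in place of 7.28 percentage points. No paired analysis was possible because the labels carry no replicate numbers, and those used here only follow the order of deposit. Depth limits Pbx4 and Pknox2, read at most 92 and 121 times in a library.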
